A study of Mus musculus with 2 samples.

Results

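Potassium channel genes other than those that serve the gastric acid pump were measured in polyadenylated RNA of whole mouse stomach. The genes were chosen by name alone: every protein-coding gene whose symbol starts with Kcn, followed by further letters and a number. Kcnq1, Kcne2, Kcnj15 and Kcnj16, the potassium channel genes grouped with the acid pump, were left out. This gave 89 of the 43346 mouse genes in the tables. The study has 1 group of 2 libraries, replicates 1 and 2, from stomachs of C57BL/6J mice, an inbred laboratory strain, at 8 weeks of age. Each library came from littermates of both sexes pooled together, and no treatment or altered gene is named. The labels give the libraries separate tissue samples but the same donor record, so whether they hold independent animals is not known, and every spread below is that between these libraries. With a single group no contrast between conditions exists, and the data answer which channel genes were present in the tissue, how high they stood and how alike the libraries were.

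Potassium channels let potassium leave or enter the cell along its gradient and thereby set the resting potential of the membrane. In the stomach they are known for a role in acid and chloride secretion by epithelial cells, in the slow waves and contraction of the muscle layers, and in the release of hormones and transmitters. Pore-forming subunits fall into voltage-gated channels, silent voltage-gated subunits that work only together with others, channels opened by calcium or sodium, inward rectifiers and 2-pore-domain channels, which carry background currents. Accessory subunits form no pore and change the opening or the traffic of the channels.

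The pore-forming genes share a short filter sequence, shown here for some genes because it is what they have in common apart from their symbols. Its codons were searched in frame, on the coding strand only, in the longest coding sequence of each gene in GENCODE M21 on mm10 (GRCm38), as NTNGGNTANGGN or NTNGGNTTNGGN, where N is any base. All 60 pore-forming genes outside the 2-pore-domain class held exactly 1 match. Of the 14 genes of the 2-pore-domain class, 11 held 2 matches, Kcnk6 held 1, and Kcnk1 and Kcnk7 held none. None of the 15 accessory genes held a match. Among 21773 other protein-coding genes with a coding sequence, from which the acid pump channels were left out too, 4.97% held 1 or more. The stretches below are 36 bases each, 5′ to 3′, with the 12 bases of the match in capitals, for at least 1 gene of each class that is named later with its level.
Kcnma1, opened by calcium and voltage (chr14:23528404-23528439, minus strand): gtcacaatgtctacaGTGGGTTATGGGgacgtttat
Kcnh2, voltage-gated (chr5:24325546-24325581, minus strand): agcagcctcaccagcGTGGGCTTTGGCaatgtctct
Kcnf1, silent voltage-gated (chr12:17175052-17175087, minus strand): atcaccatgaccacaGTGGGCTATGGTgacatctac
Kcnj8, inward rectifier (chr6:142566439-142566474, minus strand): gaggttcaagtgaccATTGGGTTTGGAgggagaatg
Kcnj11, inward rectifier (chr7:46099487-46099522, minus strand): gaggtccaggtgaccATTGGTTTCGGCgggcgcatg
The third codon of the capitals is TAT in Kcnma1 and Kcnf1, TTT in Kcnh2 and Kcnj8, and TTC in Kcnj11.

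The 2-pore-domain genes carry a filter sequence in each pore domain, so a pair of stretches is shown for each of the 4 that stood out by level or by their match count. For Kcnk1, Kcnk6 and Kcnk7 the search was widened after the first result to ACNNNNGGNTANGGN and NTNGGNCTNGGN. With these patterns 12 of the 14 genes held 2 matches and Kcnk3 and Kcnk7 held 3. The widened search also matched accessory genes (Kcnab1, Kcnab2 and Kcnab3), and 9.14% of the other protein-coding genes held a match, so it marks the filter less closely. Of the 3 matches of Kcnk3 and of Kcnk7 a pair is shown, leaving out the match at coding base 811 in Kcnk3 and at coding base 61 in Kcnk7. In the first stretches of Kcnk1 and Kcnk7, found by the pattern of 15 bases, the capitals mark its last 12. The first stretch of each gene crosses an intron, and its coordinates span that intron.
Kcnk3, first (chr5:30588581-30621907, plus strand): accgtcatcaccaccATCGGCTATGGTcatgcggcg
Kcnk3, second (chr5:30622190-30622225, plus strand): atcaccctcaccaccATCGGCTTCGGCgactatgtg
Kcnk1, first (chr8:125995796-126025028, plus strand): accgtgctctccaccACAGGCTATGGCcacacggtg
Kcnk1, second (chr8:126025317-126025352, plus strand): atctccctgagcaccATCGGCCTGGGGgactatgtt
Kcnk6, first (chr7:29225851-29232180, minus strand): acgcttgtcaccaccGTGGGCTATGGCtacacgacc
Kcnk6, second (chr7:29225527-29225562, minus strand): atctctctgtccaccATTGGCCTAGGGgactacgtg
Kcnk7, first (chr19:5704776-5706083, plus strand): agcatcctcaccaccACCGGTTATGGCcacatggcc
Kcnk7, second (chr19:5706369-5706404, plus strand): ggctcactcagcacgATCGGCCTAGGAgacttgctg
In the second stretch the third codon is TTC in Kcnk3 but CTG in Kcnk1 and CTA in Kcnk6 and Kcnk7. In the first stretch all 4 hold TAT there. Kcnk1, Kcnk6 and Kcnk7, the genes with fewer than 2 matches of the first pattern, belong to the TWIK group of weak inward rectifying channels.

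Levels are given as TPM, the usual length-corrected unit, relative to the total of the library. Replicate 1 held 51633637 expected read pairs on mouse genes and replicate 2 held 61635982, of which the 89 channel genes took 33436 and 33942. The TPM of the 89 genes summed to 264 in replicate 1 and 210.21 in replicate 2. The digestive genes Clps and Pgc held 29.6% of all TPM in replicate 1 and 42.7% in replicate 2. A smaller part of the total was thus left to the other genes in replicate 2. On a total without them, the spike-ins and the phage, the channel sums were 381.94 and 375.28. By the median, genes were hardly lower in replicate 2. Over the 11046 genes compared between libraries below, the median log2 ratio of TPM + 1, replicate 2 over replicate 1, was -0.03. For the 31 channel genes among them it was -0.09. On the reduced total these medians were 0.24 and 0.19. The sum, unlike the median, weighs the highest genes most. Among these, Kcnn4 had 58.14 and 28.43 TPM, while Kcne3 went the other way with 16.16 and 21.81. Whether Clps and Pgc account for the lower channel sum of replicate 2 was not tested. All 3 chief cell, 3 pit cell and 4 parietal cell markers of the stomach lining were detected at TPM 1 in both libraries. In bulk tissue, fewer cells of a type and less RNA per cell cannot be told apart, and a level says nothing of which cells held the RNA.

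A minority of the channel genes carried most of the channel RNA. A gene was called detected at a TPM of at least 1 in both libraries. This held for 28 of the 89 genes (31.5%), against 48.9% of 21474 protein-coding genes. Only 6 channel genes (6.74%) reached a TPM of 10 in both, against 21.1% of protein-coding genes: Kcnn4, Kcnh2, Kcne3, Kcnk1, Kcnk6 and Kcnk3. These 6 held 60.3% of the channel TPM in replicate 1 and 55.01% in replicate 2, and the first 3 alone held 41.4% and 35.6%. The median of the mean TPM was 0.37 over the 89 genes and 1.15 over all protein-coding genes.

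A low limit on read pairs, without a correction for length, gave another picture. With at least 10 expected read pairs in both libraries, 66 of 89 channel genes (74.2%) passed, against 66.6% of protein-coding genes. That limit is far less strict than a TPM of 1. A limit of 2.47 CPM (read pairs scaled to the library size alone) in both libraries, chosen after these values were seen so that 48.9% of protein-coding genes passed, as by TPM, was passed by 29 channel genes (32.6%). At matched strictness the channel share was therefore about the same with and without the length correction, and most channel genes had read pairs at a low level.

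**Figure D1:**
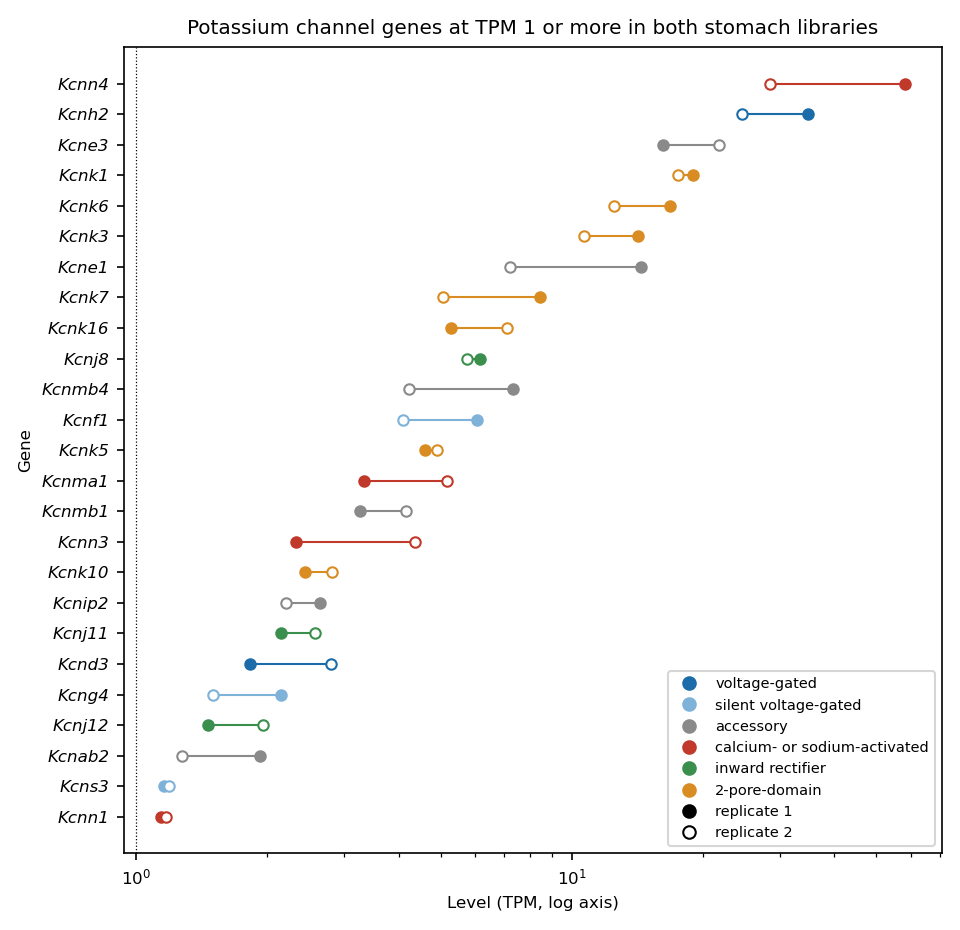
TPM (log axis) of 25 of the 28 channel genes at TPM 1 or more in both libraries, ordered by mean, with a filled point for replicate 1, an open point for replicate 2 and the colour giving the class. Kcnn4 and Kcne1 show long lines between libraries, while Kcnk1 and Kcnk5 show short ones; the dotted line is the limit of TPM 1.

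**Figure D2:**
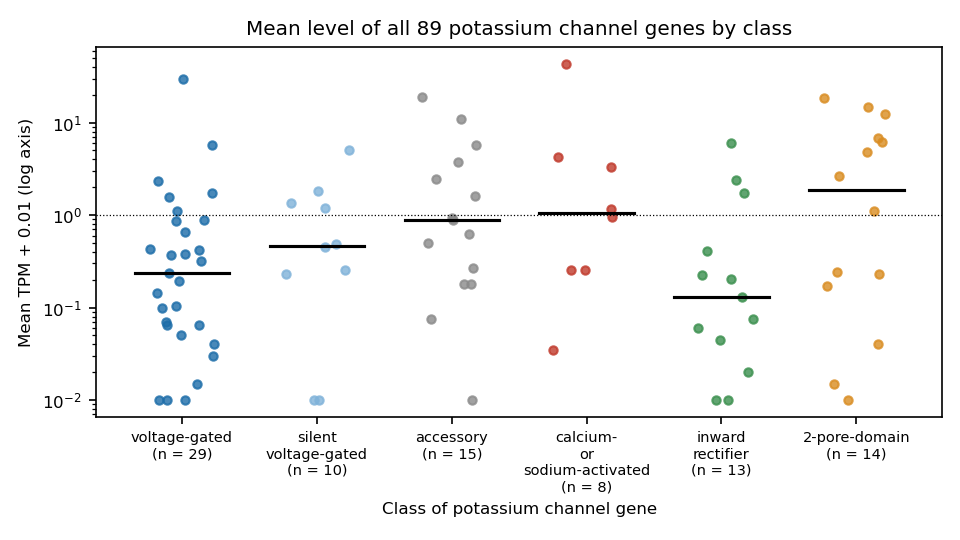
Mean TPM of all 89 channel genes by class, with 0.01 added so that genes at 0 appear on the log axis; the bar is the class median and the dotted line TPM 1. The 2-pore-domain class has the highest median, 1.86, and the inward rectifiers the lowest, 0.12, before the addition.

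Among the genes of channels opened by calcium or sodium, Kcnn4 had the highest level of all 89 genes. It encodes the calcium-activated channel of intermediate conductance, known from secretory epithelia and from blood and immune cells. Kcnn4 (chromosome 7, 24370263 to 24386690 on mm10) reached 58.14 TPM in replicate 1 and 28.43 in replicate 2, a mean of 43.3 ± 21.01 (SD, n = 2). It ranked first in both libraries although replicate 1 was the higher by far. The level rested on 6148 and 3596 read pairs.

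The small-conductance channel genes, whose products follow calcium without any need of voltage, were far lower. Kcnn3 had 2.33 TPM in replicate 1 and 4.36 in replicate 2. Kcnn1 had 1.14 and 1.17, and Kcnn2 had 1.10 and 0.81. Protein-coding transcripts held all of the Kcnn1 level, but only 0.14 and 0.25 TPM of that of Kcnn2. Kcnn3 is the small-conductance channel that PDGFRA-positive cells of the gut muscle are known for, and of these 3 it had the largest log2 difference between the libraries, given below. Pdgfra itself, the marker of those cells, had a TPM of 1.68 and 2.78, the same order as Kcnn3. The part of those cells in the Kcnn3 level was not tested.

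Kcnma1, the pore of the large-conductance channel that opens with calcium and voltage, was detected at 3.33 and 5.16 TPM. Its accessory genes differed widely. Kcnmb1, the beta subunit of smooth muscle, had 3.27 and 4.15 TPM, close to the pore gene. Kcnmb4, the beta subunit best known from neurons, had 7.32 and 4.22, but most of that TPM lay in a transcript without a coding sequence, as described below. Kcnmb2 stood at 0.26 and 0.08 TPM, and Kcnmb3 had no read pair in either library. Lrrc26, the gamma subunit that lets the channel open at low calcium in epithelial cells, had 130.04 and 108.71 TPM, far above the pore gene in both libraries. The remaining genes grouped by symbol with the calcium- or sodium-activated class were below TPM 1. Kcnt1 had 0.20 and 0.29. Kcnu1, a sperm channel, was placed there by its symbol only, not by what opens it, and had 0.31 and 0.18. Of the class of 8 genes, 4 were detected.

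The 2-pore-domain class held the largest part of the channel TPM, 27.7% in replicate 1 and 29.3% in replicate 2, with 7 of 14 genes detected. Kcnk1, the founding member of the TWIK group, had 18.94 and 17.56 TPM, a mean of 18.3 ± 0.976 (SD, n = 2), so the libraries nearly coincided. Kcnk6, of the same group and known from lysosomes, had 16.83 and 12.52. Kcnk7, for which no current of its own is known, had 8.44 and 5.06. All 3 TWIK group genes were thus detected.

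Some genes of channels that sense the acid outside the cell were detected as well. Kcnk3, the TASK channel closed by extracellular acid, had 14.17 TPM in replicate 1 and 10.67 in replicate 2. Kcnk5 and Kcnk16, which open in alkaline surroundings, had 4.60 and 4.90, and 5.27 and 7.08. The levels of Kcnk5 differed little between the libraries, and those of Kcnk16 were the higher in replicate 2. Further TASK genes were not detected: Kcnk9 had 0 and 0.01 TPM, and Kcnk15 had 0 and 0.06.

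Of the stretch- and lipid-sensitive TREK group, Kcnk10 was detected and the others were not. Kcnk10 had 2.44 TPM in replicate 1 and 2.81 in replicate 2. Kcnk2 had 1.82 and 0.35, above the limit in replicate 1 only, and Kcnk4 had 0.17 and 0.15. Kcnk18, the TRESK channel of sensory neurons, had no read pair.

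The voltage-gated class was the largest, with 29 genes, of which 5 were detected, and 1 gene made up most of its level. Kcnh2, the ether-a-go-go-related channel that repolarises the heart and sets the resting potential of gut smooth muscle, had 34.89 TPM in replicate 1 and 24.64 in replicate 2, a mean of 29.8 ± 7.25 (SD, n = 2). Kcnh2 (chromosome 5, 24319589 to 24351604 on mm10) was second in both libraries by the TPM of the whole gene, though not by its coding transcripts, which are given below. The class as a whole summed to 51.53 and 43.41. The other 7 Kcnh genes stood below TPM 1 in at least 1 library, and Kcnh6, the closest to the limit, had 0.59 and 1.12.

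Kcnd3, the pore of a fast transient current in muscle and pacemaker cells, had 1.82 and 2.80. The deposited posterior mean TPM put Kcnd3 higher, at a mean of 5.79 over the libraries. It also gave the reverse order, with 7.41 in replicate 1 and 4.17 in replicate 2. Of the 8 Kcna genes, the Shaker type that is dense on axons, none was detected. The highest of them was Kcna5, a channel of muscle cells, with 1.34 and 0.87 TPM.

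Silent subunits, which change other voltage-gated channels and form none alone, summed to 12.91 and 8.68 TPM over 10 genes. Kcnf1 had 6.06 in replicate 1 and 4.09 in replicate 2, Kcng4 had 2.15 and 1.5, and Kcns3 had 1.16 and 1.19. Kcng2 had 2.14 and 0.54, so it passed the limit in replicate 1 only. Of its TPM in replicate 1, 55.1% lay in Kcng2-202, a transcript of 279 bases. In replicate 2 all of it lay in Kcng2-201, of 2813 bases. The read pairs were 150 and 97. Kcnv1, the higher of the Kcnv genes, had 0.31 and 0.57.

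Inward rectifiers, which pass potassium more easily into the cell than out, were mostly low, and 3 of 13 were detected. Kcnj8, the pore of the ATP-sensitive channel of vascular and visceral muscle, had 6.16 and 5.74 TPM. Kcnj11, the ATP-sensitive pore of pancreatic beta cells and other endocrine cells, had 2.15 and 2.57. Their sulfonylurea receptors, without which these pores stay inside the cell, stood at 2.29 and 2.45 for Abcc8, the partner of Kcnj11 in beta cells. Abcc9, the usual partner of Kcnj8, had 0.83 and 2.07 TPM, below Kcnj8 in both libraries. Kcnj12, a strong rectifier of muscle, had 1.46 and 1.95.

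Accessory subunits held 18.6% of the channel TPM in replicate 1 and 21.3% in replicate 2, and 6 of 15 genes were detected. Kcne3, a small membrane protein that holds Kcnq1 open in gut epithelium, had 16.16 TPM in replicate 1 and 21.81 in replicate 2. Kcne1, which gives Kcnq1 its slow current in heart and inner ear, had 14.43 and 7.22, the reverse order. Kcnip2, a calcium-binding partner of the Kcnd channels, had 2.64 and 2.20, beside Kcnd3 at 1.82 and 2.80. Kcnab2, a cytoplasmic partner of the Kcna channels, had 1.92 and 1.27, while no Kcna gene reached the limit in both libraries.

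The left-out acid pump channels give a scale for these levels. Kcnq1, Kcnj15, Kcne2 and Kcnj16 summed to 74.33 TPM in replicate 1 and 53.55 in replicate 2, against 264 and 210.21 for the 89 other genes. Kcnn4 was above Kcnq1 in both libraries, 58.14 against 47.1 TPM and 28.43 against 23.9. Kcne3 was above Kcne2 in both, 16.16 against 10.57 and 21.81 against 6.78.

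The other 61 channel genes were below the limit in at least 1 library, and 53 of them in both. Those just inside the limit by the lower TPM were Kcnn1 at 1.14, Kcns3 at 1.16, Kcnab2 at 1.27, Kcnj12 at 1.46 and Kcng4 at 1.5. Just outside were Kcna5 at 0.87, Kcnn2 at 0.81, Kcna7 at 0.71, Kcnab3 at 0.70 and Kcnip3 at 0.69. These values of the whole-gene TPM lie close enough together that the limit divides genes of similar level by that measure. Passing in replicate 1 only were Kcng2, Kcna5, Kcnk2, Kcnn2 and Kcna7, and in replicate 2 only Kcnab3, Kcnip3 and Kcnh6.

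No read pair was assigned in either library to 8 genes (8.99%), against 22.5% of protein-coding genes: Kcnh5, Kcnh7, Kcna10, Kcnv2, Kcnj1, Kcnj6, Kcnk18 and Kcnmb3. Kcnj1 is the secretory channel of the kidney and Kcnj6 a neuronal channel opened by G proteins. For these 8, 3 read pairs, a bound chosen here, would correspond to a TPM of 0.00889 to 0.0558. Levels under that could be missed at this depth, although Kcnk9 was seen from 1 read pair in replicate 2. A further 6 genes had read pairs in 1 library only.

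Other genes that set the membrane potential, from a list of channels and receptors of excitable cells, were detected in 6 of 17 cases. Trpm4, a calcium-activated cation channel, had 20.55 and 19.92 TPM, and Cacna1h, a T-type calcium channel, had 15.37 and 12.18. Hcn2, a pacemaker channel, had 12.16 and 4.04. The sodium-potassium pump, which builds the gradient that the channels use, was represented by 9 of 11 detected genes, with the beta subunit gene Atp1b1 at 101.46 and 87.47 TPM. Atp1b1 stood above every one of the 89 channel genes in both libraries. Of 15 partners with symbols of other kinds, such as calmodulins, sulfonylurea receptors and BK gamma subunits, 6 were detected, and Lrrc38 and Lrrc52, gamma subunits like Lrrc26, had no read pair.

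Because a gene's TPM is the sum over its transcripts, short transcripts without a coding sequence can carry it. Of the 28 detected genes, 12 had 1 transcript in the tables and 16 had several. The transcript of highest TPM was the same in both libraries for 11 of the 16 and another for Kcnab2, Kcne3, Kcnj12, Kcnma1 and Kcnn1. Counting only transcripts that GENCODE M21 lists as protein-coding, 27 of the 28 kept a TPM of at least 1 in both libraries (45.6% of protein-coding genes did), and Kcnab2 fell short with 1.2 and 0.8. In 7 genes such transcripts held less than 90% of the TPM in at least 1 library. Transcripts that M21 no longer lists were not counted as coding.

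**Figure D3:**
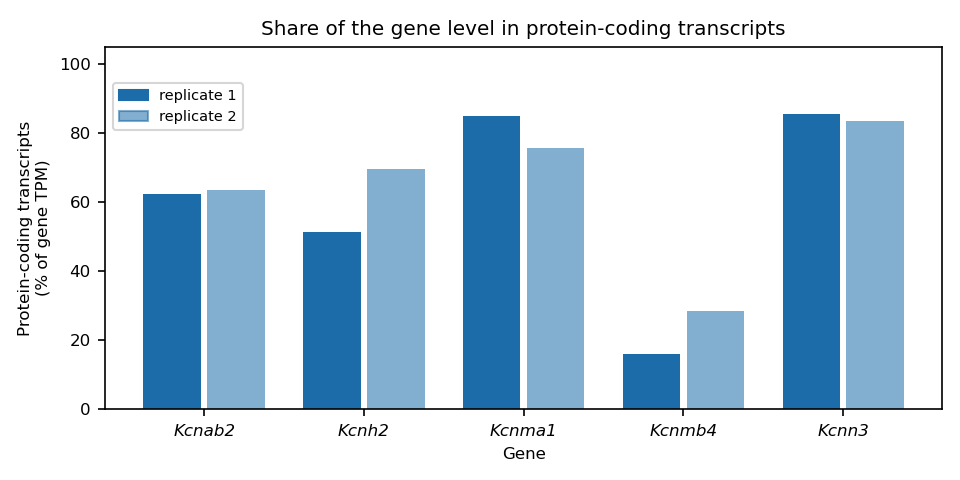
Share of the gene TPM, in percent, that lay in transcripts listed as protein-coding, for 5 of the 7 detected channel genes under 90% in at least 1 library, with a dark bar for replicate 1 and a light bar for replicate 2. Kcnmb4 has the lowest bars, 15.8% and 28.4%, and Kcnh2 stands at 51.4% and 69.7%.

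Kcnh2 lost the most by this measure among the high genes. Its coding transcripts held 17.93 TPM in replicate 1 and 17.17 in replicate 2, so they nearly coincided where the gene TPM of 34.89 and 24.64 did not. On these transcripts Kcnh2 stood below Kcnk1, at 18.94 and 17.56 TPM, in both libraries and below Kcne3, at 21.81, in replicate 2. Kcnh2-202, 3193 bases long with its own 5′ exon and 2460 coding bases, held 14.17 and 12.76. Kcnh2-201, the full-length form of 4221 bases with 3486 coding bases, held 3.76 and 4.41. The processed transcripts Kcnh2-203 of 710 bases and Kcnh2-204 of 741 bases held 10.85 and 4.78, and 6.11 and 2.68. In read pairs the share without a coding sequence was smaller, since the short forms gain in TPM by their length: 316.38 and 170.35 pairs for Kcnh2-203 against 2448.27 and 2629.61 for Kcnh2-202.

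Kcnmb4 was carried by a short form too. Its coding transcript of 1367 bases held 1.16 and 1.2 TPM, while Kcnmb4-204, a processed transcript of 517 bases, held 6.16 and 2.90. On the coding transcript alone, Kcnmb4 was thus below Kcnmb1 in both libraries, the reverse of the order by gene. Of the exon bases of Kcnmb4, 20.8% are shared with Kcnmb4os2, an annotated antisense gene with no read pair in either library.

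In 2 other accessory genes the quantified transcripts shared the same coding length, so the mix of these left the coding sequence length unchanged. Kcne3-201 held 53.0% of the gene TPM in replicate 1 and 32.7% in replicate 2, and Kcne3-204 held 39.9% and 60.8%, each with 309 coding bases. Kcne3-206 was not among the quantified transcripts, so these shares leave it out. In the pooled spliced reads described below, the intron found only in Kcne3-206 had 185 reads. The Kcne3 intron of most reads, found in Kcne3-201 and Kcne3-204 among others, had 317. Kcne1-202, of 601 bases, held 71.9% and 73.1% of the TPM of Kcne1, and the rest lay in a transcript of 3155 bases with the same 387 coding bases.

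Spliced reads gave a second readout of the same RNA. The deposited junction table pools both libraries and lies on another build, mm9, so junctions were tied to a channel gene only by the lengths and the spacing of its introns, with at least 2 junctions needed. Of the 77 channel genes with 2 or more introns, 42 were tied, among them 25 of 27 detected genes and 17 of 50 others. The genes of most reads were Kcnn4 with 3180, over 9 of its 10 annotated introns, Kcnh2 with 2582, over all 16, and Kcnk6 with 2279. Kcnn4 was quantified as Kcnn4-201 alone. The intron found only in Kcnn4-201 had 94 reads, and an intron found only in Kcnn4-202, Kcnn4-203 and Kcnn4-204 had 439. The remaining Kcnn4 introns with reads are shared by Kcnn4-201 and other transcripts. Kcng4 and Kcnj11 were the detected genes with 2 or more introns that were not tied. Kcnh6, not detected by TPM, had 120 reads over 10 of 15 introns.

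In Kcnh2 the spliced reads showed both coding forms. The 5 introns found only in the full-length Kcnh2-201 had 20 to 102 reads, with a median of 36. The only intron found in Kcnh2-202 alone had 65 reads, within that range, whereas the estimated TPM of Kcnh2-202 was the higher in both libraries. The 9 introns shared by both forms had 65 to 664 reads, with a median of 161. Kcnh2-203 alone contains an intron with 43 reads.

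**Figure D4:**
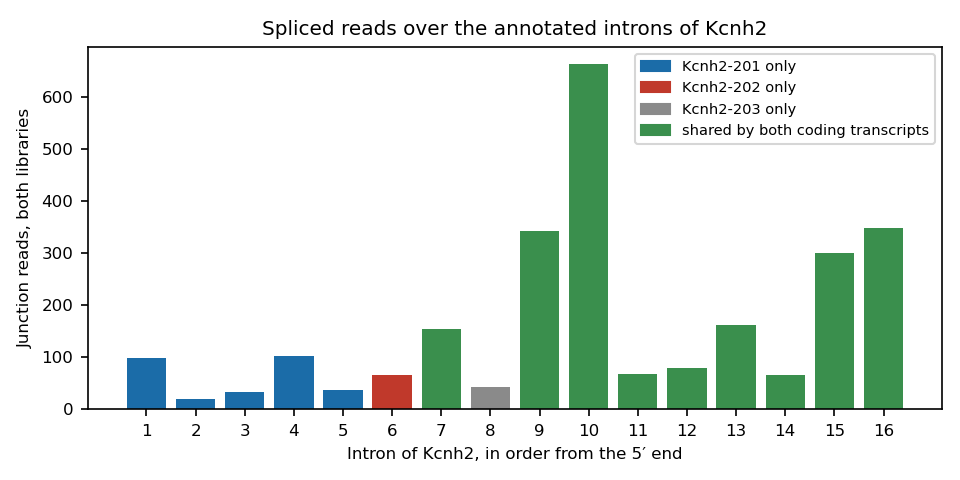
Spliced reads, both libraries pooled, over the 16 annotated introns of Kcnh2 in order from the 5′ end, coloured by the transcripts that contain the intron. Introns 1 to 5 of Kcnh2-201 lie between 20 and 102 reads, intron 6 of Kcnh2-202 stands at 65, and intron 10 is the highest with 664 reads.

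Reads of Kcnma1 were uneven along the gene. Of its 62 annotated introns, pooled over its transcripts, 21 were matched to junctions by length and spacing. The others are therefore not shown to lack reads. The 21 matched introns held 1069 reads in all, and the 5 of these nearest the 3′ end held 872 reads, or 81.6%. The 16 before them had 1 to 45 reads each. The table therefore speaks mainly for the 3′ part of the gene.

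The libraries were compared gene by gene on read pairs scaled by TMM, as the log2 of replicate 2 over replicate 1, for the 31 channel genes whose mean TPM was at least 1. At least 2-fold higher in replicate 1 were 3 genes (9.68%), Kcnn4, Kcne1 and Kcnk2, against 5.47% of the 11046 protein-coding genes of that level. None was 2-fold higher in replicate 2, against 2.13% of those genes. The scaled count was higher in replicate 1 for 16 of the 31 (51.6%) and for 54.7% of all. The SD of the log2 ratios was 0.58 over the 31 genes and 0.59 over all 11046, and the medians were -0.13 and -0.05. By these measures the channel genes differed between the libraries about as much as protein-coding genes in general. The calls depended on the scale. On log2 of TPM + 1 after leaving Clps, Pgc, spike-ins and phage out of the total, the median of all 11046 genes moved from -0.05 to 0.24. There 2 channel genes, Kcnk2 and Kcng2, were 2-fold higher in replicate 1 (2.35% of all) and Kcnn3 was in replicate 2 (3.64% of all), while Kcnn4 at -0.72 and Kcne1 at -0.66 lost the call. Kcnk1, Kcnj8 and Kcnip2 turned sign on that scale.

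Kcnk2, with 165 read pairs in replicate 1 and 60 in replicate 2, had the lowest log2 ratio, -1.71, with a 95% Clopper-Pearson interval of -2.20 to -1.31. Kcnn4 had a log2 ratio of -1.06 (-1.12 to -1.002), and Kcne1, from 929 and 543 read pairs, had -1.06 (-1.22 to -0.91). These intervals cover counting error only and leave out variation between animals and between libraries. They treat read pairs as independent. Read pairs without molecular identifiers are not independent molecules, so the intervals may be too narrow even for counting error. At the other end stood Kcnn3 with 0.89 (0.72 to 1.06), Kcnd3 with 0.79 (0.58 to 1.00) and Kcnk16 with 0.41 (0.16 to 0.67). Of the 31 intervals, 15 lay wholly below 0, 8 wholly above and 8 spanned 0, but with a single pair of libraries none of these ratios has a replicate check.

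**Figure D5:**
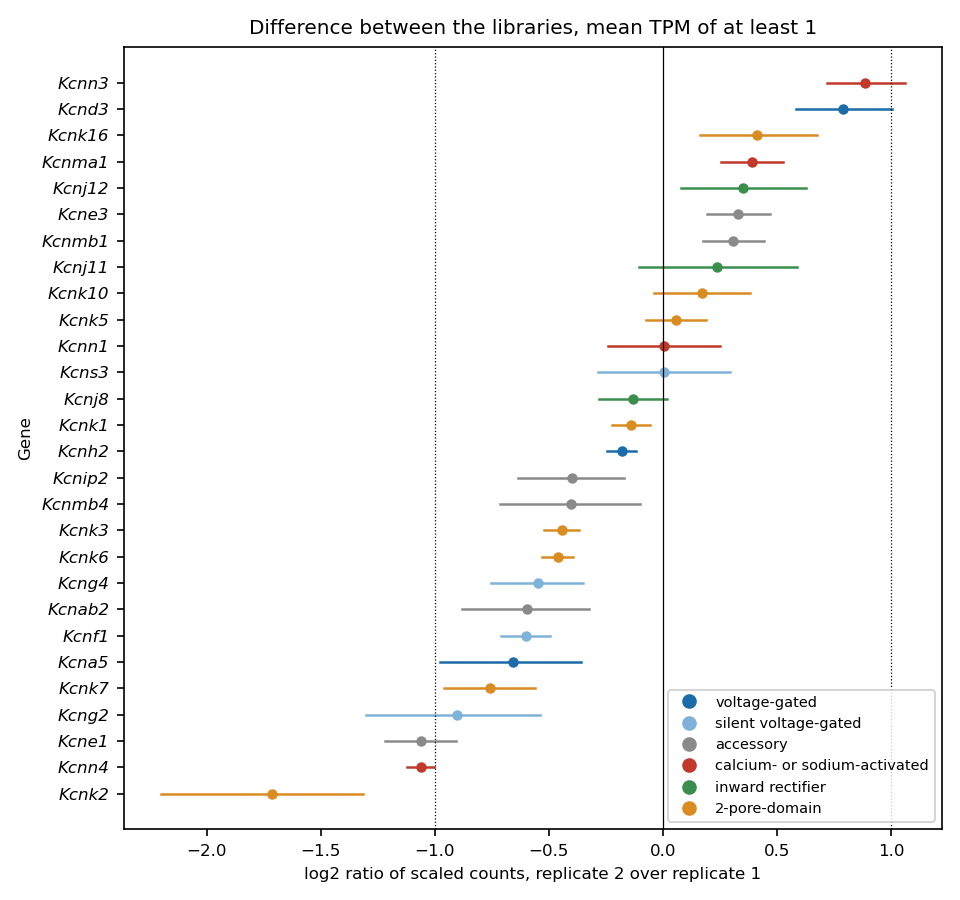
Log2 ratio of scaled counts, replicate 2 over replicate 1, for 28 of the 31 channel genes whose mean TPM was at least 1, with bars for the 95% interval of counting error and dotted lines at a 2-fold difference. Kcnk2, Kcnn4 and Kcne1 lie at or beyond the left line, and no gene lies beyond the right one.

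Kcnh2 shows how the scale matters here: its scaled read pairs differed by a log2 ratio of only -0.18, while its TPM differed more, with the transcript mix given above. Kcns3 and Kcnn1 had ratios of 0.00 and turned sign with the size factors of DESeq2, so no direction is given for them. For Kcnq1, left out by the rule, the log2 ratio was -1.05, close to that of Kcnn4 and Kcne1.

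Markers of the cell types in a stomach wall moved with the libraries too. The 8 smooth muscle markers were all detected and summed to 7094 and 4440 TPM (median log2 ratio -0.61), although Myh11 among them had 0.84. The 4 parietal cell markers summed to 5004 and 2747 (median log2 ratio -0.42), nearly all of it Atp4a and Atp4b at -0.79 and -0.81, while Slc26a9 had -0.06 and Esrrg 0.58. The 6 endocrine markers, all detected, summed to 3935 and 2705 (-0.45). Higher in replicate 2 by scaled counts were the 3 markers of interstitial cells of Cajal, 2 of them detected, with sums of 25.41 and 32.70 TPM and a median log2 ratio of 0.54. The 6 endothelial markers summed to 180.32 and 199.23 (0.47), although Vwf among them had -0.02. The 5 pericyte markers, 4 detected, summed to 31.89 and 43.95 (0.52), although Cspg4 among them had -0.23. Of 9 enteric neuron markers 3 were detected, with sums of 33.46 and 24.24 (-0.17) and log2 ratios from -0.80 for Uchl1 to 1.25 for Snap25 among the 5 with a mean TPM of 1 or more. Detected in both libraries were also 3 of 4 markers of enteric glia, 3 of 4 of tuft cells, 4 of 4 of squamous epithelium, 3 of 6 of striated muscle, 3 of 3 of macrophages, 2 of 3 of mast cells and 0 of 3 of T cells. None of the listed markers lacked read pairs in both libraries, and their part in the differences of the channel genes was not tested.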

How the data were processed

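Size-selected RNA was polyA-selected, depleted of ribosomal RNA and sequenced as stranded read pairs with spike-ins, per the labels. The authors deposited expected counts, TPM, FPKM and posterior mean TPM per gene and transcript on mm10 with GENCODE M4, and the percent of each transcript within its gene, per the file headers and README. The deposited splice table, on mm9, holds the count of reads over each junction for both libraries together. Not given in the sources used here are the quantifier, its version and whether counting used strand.

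Symbols, gene types, positions and coding sequences came from GENCODE M21, matched by gene ID (42462 of 43346 IDs). Expected counts were rounded and scaled by TMM in edgeR 4.0.16 (R 4.3.3), with a prior count of 2 for log2 ratios. DESeq2 1.42.0 size factors were an alternative. Intervals are Clopper-Pearson at 95% for counting error. The procedures were tested on simulated data. With 1 group no p-value was computed. A search for filter residues in proteins was planned; codons were searched instead. Some genes and sequences are not reported here. Of the rest, named were every detected gene, the highest gene of each subfamily, the 5 genes on each side of the limit, genes without read pairs, and the 3 highest and 3 lowest ratios. The channel genes and the lists were chosen with earlier results of these data known.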

Additional observations from a re-analysis of the deposited data

How the results depend on the processing

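The 28 detected channel genes became 36 with a limit of TPM 0.5 (55.2% of protein-coding genes) and 20 with a limit of TPM 2 (41.2%). The count was 31 without replicate 1 (51.8%), 33 without replicate 2 (50.4%), 32 on a total without spike-ins, phage, Clps and Pgc (52.9%), 27 on protein-coding transcripts (45.6%), 28 on posterior mean TPM (50.3%) and 28 on FPKM (49.8%). With at least 10 expected read pairs it was 66. The 3 genes at least 2-fold higher in replicate 1, Kcnn4, Kcne1 and Kcnk2, were the same under the other count scalings, the lower prior count and a mean TPM limit of 0.5. On log2 of TPM + 1 the count was again 3, with Kcng2 in place of Kcne1, at -0.91. With no limit on TPM it was 7 (8.03% of protein-coding genes). The count of 0 in replicate 2 rose to 1 at the mean TPM limit of 0.5 (3.28%), to 1 on TPM without Clps and Pgc, an alternative added after seeing the data, and to 8 with no limit on TPM (9.79%). Leaving spike-ins, phage, Clps and Pgc out of the total raised the level of all 28 genes beyond 1 SD, Kcnn4 from 43.3 to 67.4. Posterior means moved 4, the most for Kcnd3, from 2.31 to 5.79; the cause was not tested. Coding transcripts alone moved 5, all lower by construction. No paired analysis was possible because there is 1 group.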

Other observations

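Kcna1 and Kcna2, Shaker type channels of axons, were singled out after their values were seen. Kcna1 took 108 read pairs in the first library and 322 in the second, at 0.21 and 0.53 TPM, with a log2 ratio of 1.27 (0.97 to 1.62). Kcna2 had 30 and 147, at 0.16 and 0.66 TPM, with 1.94 (1.43 to 2.62). Both lie under the mean TPM of 1 that the comparison of the libraries required, as does Kcna6, with 90 and 244 read pairs and a log2 ratio of 1.14 (0.80 to 1.52). Kcns1, a silent subunit, went the other way, with 53 and 12 read pairs and -2.24 (-3.47 to -1.51).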
